A study of Zea mays with 2182 samples.

Results

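The 88 maize genes described here had their highest level in the cells of the shortest anthers of the fertile inbred line W23, between 0.5 and 1.0 mm long. They were taken from 21774 rows with a gene ID in a table of unique molecular identifiers (UMIs), each of which stands for 1 captured transcript molecule of 1 cell. Cells with at least 500 UMIs were summed per anther length and scaled to counts per 1000000 UMIs (CPM). The lengths were averaged in 4 windows, 0.5-1.0, 1.25-1.75, 2.0-2.25 and 2.5-3.0 mm. A member had a mean of at least 50 CPM at 0.5-1.0 mm that was the highest of the 4 and, with 5 added to each mean, at least 2.5 times the next highest. These values chose the genes, so the drop in level after 1.0 mm is given below as a description and is not tested.

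All 11 lengths shared the W23 genotype, greenhouse growth and the absence of any treatment. They differed in anther length, which stands for developmental stage, and also in the sets of cells, described below, that made them up. Length and set thus cannot be fully told apart. The 3 lengths 0.5, 0.75 and 1.0 mm were set against the 8 later ones, 1.25, 1.5, 1.75, 2.0, 2.25, 2.5, 2.75 and 3.0 mm. Single cells had been isolated from fixed and digested anthers on a Hana cell sorter, and the captured 3' ends of their transcripts were read with the CEL-Seq2 method. At least 2 plants gave anthers for each length, but no cell could be assigned to a plant, so each length counted as 1 sample and the spread between lengths holds development as well as error.

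A maize anther first grows by cell division, while its somatic wall layers (epidermis, endothecium, middle layer and tapetum) are set apart around the germinal cells in the centre. Division then slows, the layers take on their own functions, the germinal cells enter meiosis, and the outer wall turns green. Genes with a high level in short anthers therefore include those of proliferating and newly patterned cells, along with any gene that is switched off later. The members carry IDs of the B73 RefGen_v4 annotation, and 0 of the 88 could be paired with a gene symbol or function, so they are described by level, timing and the cells that hold them.

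The 1589 cells used, 1206 of them from later lengths, numbered 62 or more per length, with 97390 UMIs at 3.0 mm to 1419519 UMIs at 2.0 mm. The first word or date of a cell's title, of which there were 6, is its set, and cells of the same set, number and length form a pool. Set 1.4.21 alone covered all 11 lengths. Pool 7 of set 8.18.21 at 0.5 mm stood apart from the other short anther pools and was left out of the rule, as were the MiSeq cells and pool 2 of set 3.29.22 at 3.0 mm. In a sum of cells, fewer cells of a type and less RNA per cell cannot be told apart. Intervals on counts are exact 95% Poisson intervals and cover counting error only.

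Summed over all 88, the members had 11223, 10487 and 9798 CPM at 0.5, 0.75 and 1.0 mm. At the later lengths, in order, their sum was 3531, 2640, 2739, 1972, 1725, 2352, 1517 and 1058 CPM. They thus made up 1.05% ± 0.0713 of all UMIs at 0.5-1.0 mm (SD, n = 3 lengths), 0.297% ± 0.0489 at 1.25-1.75 mm (n = 3), 0.185% ± 0.0174 at 2.0-2.25 mm (n = 2) and 0.164% ± 0.0656 at 2.5-3.0 mm (n = 3). The biggest step lay between 1.0 and 1.25 mm, the boundary across which the rule chose the members, so its place and size were largely set by the rule. The Poisson intervals were 9410 to 10198 CPM for 1.0 mm and 3284 to 3792 CPM for 1.25 mm. After 1.25 mm the steps were smaller and not all downward, with 1.75 and 2.5 mm each above both neighbours. Without pool 1 of set 1.4.21 the sum at 1.25 mm was 3239 CPM.

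A single member was usually a gene of modest level. Its mean at 0.5-1.0 mm ran from 50.4 to 634 CPM with a median of 76.5 CPM, and its UMIs there from 36 to 483 with a median of 62.5. The 3 highest members held 16.7% of all member UMIs at 0.5-1.0 mm and the 12 highest held 40.4%. The ratio to the next window ran from 2.50 to 12.1 with a median of 2.81, and 53 of 88 members were under 3 while 19 reached 4. The median of the members' means was 20.8, 13.5 and 10.9 CPM in the later windows, in order.

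The rule left the order of the later windows open. The next highest window was 1.25-1.75 mm for 64 members, 2.0-2.25 mm for 15 and 2.5-3.0 mm for 9. The lowest was 2.5-3.0 mm for 51, 2.0-2.25 mm for 31 and 1.25-1.75 mm for 5, with a tie in 1, and 40 members went down in the order of all 4 windows. In 62 members every later length was under 50 CPM, and 57 had 0 UMIs at 1 or more later lengths. Of these zeros, 40 members had one at 3.0 mm, the shallowest length, where 0 UMIs still allows up to 30.8 CPM.

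**Figure D1:**
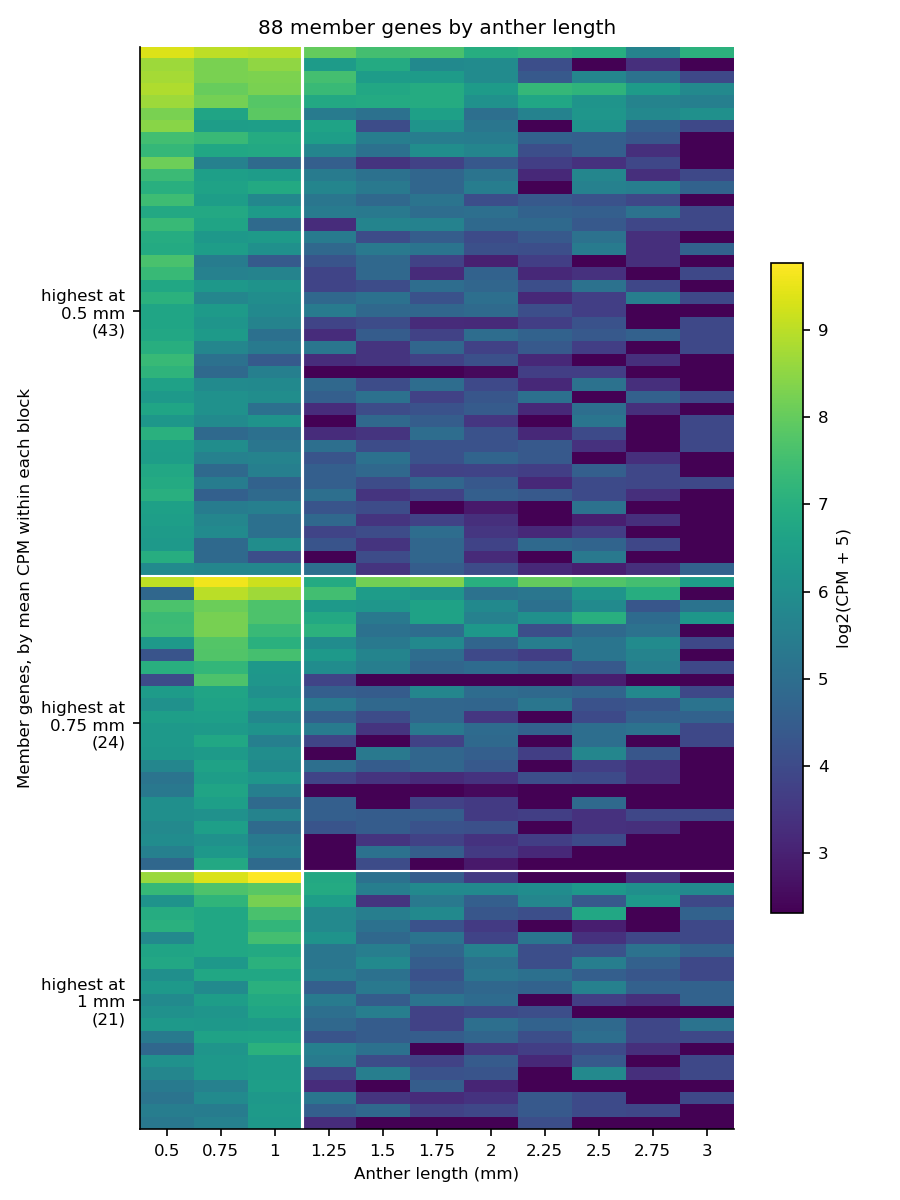
Level of each of the 88 members (rows) at the 11 anther lengths (columns, mm) as log2(CPM + 5), in blocks by the length of 0.5-1.0 mm at which the gene was highest and by mean CPM within a block. The colours change at the white line after 1.0 mm, and 43, 24 and 21 members were highest at 0.5, 0.75 and 1.0 mm.

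Members also differed in timing within 0.5-1.0 mm, where the rule used only the mean of the 3 lengths. All 88 had their highest single length in this window, which the rule favoured. It was 0.5 mm for 43, 0.75 mm for 24 and 1.0 mm for 21 (48.9%, 27.3% and 23.9%). Among the 4195 gene IDs with a mean in the members' own range of level, the shares were 41.1%, 28.7% and 30.2%. The highest of the 3 lengths was a median of 1.94 times the lowest in members, against 1.62 times in those 4195 genes. This span was 3 or more in 26 of the 88 members and in 280 of the 4195 genes. A single high length can carry a mean over the rule's thresholds, so the members' span is given as a description.

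In 72 of the 88 members every length of 0.5-1.0 mm was above every later length; 14.7% of the 4375 gene IDs with a mean of at least 50 CPM had this order. The rule uses the same contrast, so nothing is read from that count. The other 16 members overlapped, 12 of them with a lowest short anther value below 50 CPM. Zm00001d028554 overlapped most widely, with 22.8 CPM at 0.5 mm, far below the 504 and 408.4 CPM of 0.75 and 1.0 mm. Its high values rested on 1 pool each. Pool 5 of set 7.21 had 943 CPM at 0.75 mm, where the other pools of at least 8 cells had 58.4 to 126.1 CPM. Pool 5 of set 8.18.21 had 1065 CPM at 1.0 mm, where the others had 83.3 to 99.98 CPM. Without these pools the 0.75 and 1.0 mm values were 102.3 and 96.4 CPM and its mean at 0.5-1.0 mm was 73.8 CPM. Its mean at 1.25-1.75 mm was 108.6 CPM, or 76.9 CPM without its highest pool at 1.25 mm. Its membership thus depended on the short anther pools named.

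The member of highest level was Zm00001d014875. It had 395.4, 645 and 862 CPM at 0.5, 0.75 and 1.0 mm, and at the later lengths 0 to 107.6 CPM with a median of 6.03. Its level was higher at each step up to 1.0 mm and then dropped to 107.6 CPM at 1.25 mm, with 29.1 and 17.7 CPM at 1.5 and 1.75 mm and 0 UMIs at 2.25, 2.5 and 3.0 mm. Pool 1 of set 1.4.21 held 14 of the 23 UMIs at 1.25 mm, and without it the value was 46.0 CPM. This was the sharpest change among the 12 highest members, with a ratio of 11.3 to the next window.

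Zm00001d021707 had 521, 766 and 580 CPM at 0.5, 0.75 and 1.0 mm, and 82.1 to 323.5 CPM with a median of 193.9 CPM later. Zm00001d051885 had 654, 514 and 482 CPM at the same 3 lengths, and 45.1 to 252.6 CPM with a median of 135.8 CPM later. Neither was at 0 at any length, and their ratios of 2.56 and 2.61 lay near the threshold. Unlike Zm00001d014875, both were thus still detected at every later length. Zm00001d021707 had its lowest value before 3.0 mm at 1.25 mm, 112.2 CPM, and was higher again at 1.5 and 1.75 mm with 285.6 and 323.5 CPM.

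Zm00001d021447 had 403.98, 300.7 and 363.5 CPM at 0.5, 0.75 and 1.0 mm, and 0 to 110.7 CPM with a median of 32.7 CPM later. Zm00001d026488 had 427, 300.7 and 306.3 CPM at those 3 lengths, and 10.3 to 182.4 CPM with a median of 51.7 CPM later. Both were lower at each length from 2.25 mm on than at any of 1.25 to 1.75 mm, and Zm00001d021447 was at 0 UMIs at 2.5 and 3.0 mm. Zm00001d046438 had 464, 257.1 and 302.2 CPM in short anthers and 51.3 to 159.02 CPM, median 110 CPM, later. Zm00001d021573 had 398.3, 291.03 and 216.5 CPM in short anthers and 41.1 to 115.2 CPM, median 84.5 CPM, later. In these last 2 genes no later length was at 0.

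The remaining 5 of the 12 highest members were between 206.7 and 311.9 CPM on average at 0.5-1.0 mm. Zm00001d011236 had 196.3, 266.8 and 200 CPM in short anthers, against 15.0 to 93.1 CPM later. Zm00001d012957 had 162.2, 295.9 and 200 CPM in short anthers, against 25.0 to 124.1 CPM later, the highest of these at 2.5 mm. Zm00001d047087 was lowest at 0.75 mm among short anthers, with 304.4, 97.01 and 232.8 CPM, against 28.2 to 88.6 CPM later. Zm00001d000126 was highest at 0.75 mm, with 165.01, 295.9 and 159.3 CPM, against 0 to 130.96 CPM later. Apart from Zm00001d028554, all of the 12 had short anther values above each of their later ones.

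The values of these 12 genes depended in part on single pools. Without the pool that held most of the gene's UMIs at a length, 7 of the 36 values at 0.5-1.0 mm and 32 of the 79 later values with at least 5 UMIs were lower by more than 1.5 times. Besides both of Zm00001d028554, the short anther values were those of 5 genes. Without pool 2 of set 8.18.21, the 1.0 mm value was 383.2 CPM in Zm00001d021707 and 113.2 CPM in Zm00001d011236. Without pool 5 of set 7.21, Zm00001d021447 had 158.1 CPM at 0.75 mm, and without pool 8 of set 8.18.21, Zm00001d026488 had 280.5 CPM at 0.5 mm. Without pool 5 of set 8.18.21, Zm00001d000126 had 90.4 CPM at 1.0 mm, which is below its 1.25 mm value.

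**Figure D2:**
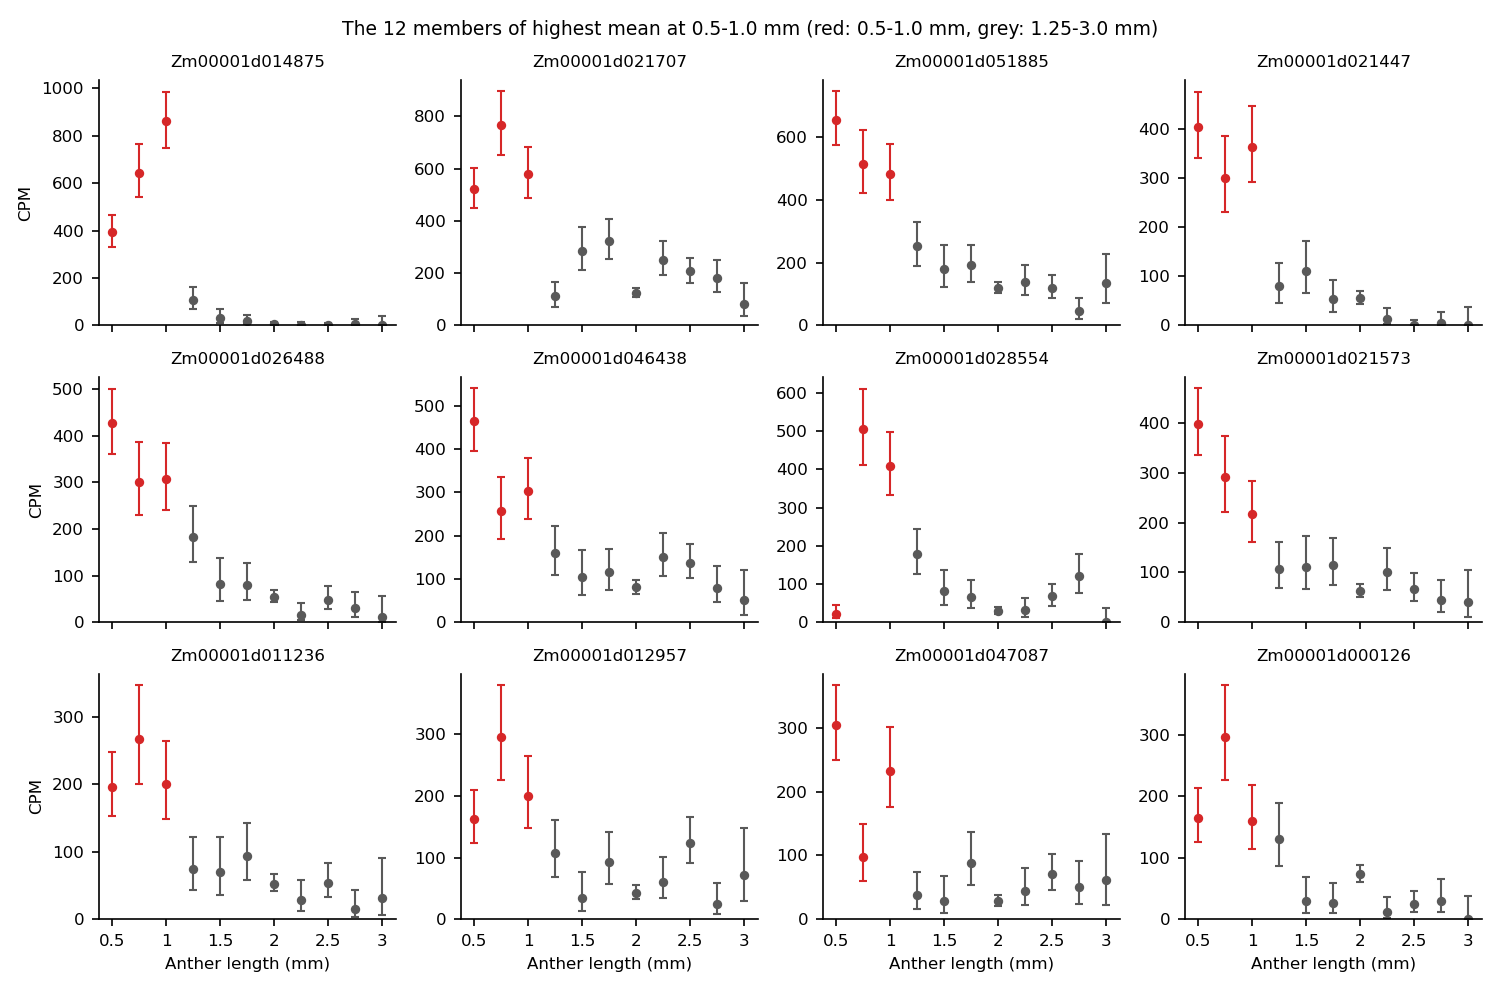
CPM (vertical axis, starting at 0, a scale for each gene) of the 12 members with the highest mean at 0.5-1.0 mm against anther length (mm), with red points for 0.5-1.0 mm, grey points for 1.25-3.0 mm and bars for the exact 95% Poisson interval. Zm00001d014875 went up to 862 CPM at 1.0 mm and was at 107.6 CPM or less from 1.25 mm on, while Zm00001d021707 stayed between 82.1 and 323.5 CPM later.

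The members with the largest ratios were mostly genes of lower level. Besides Zm00001d014875 they were Zm00001d044806, Zm00001d018951, Zm00001d030069, Zm00001d020544 and Zm00001d000958. Zm00001d044806 had 11.4, 198.9 and 69.4 CPM at 0.5, 0.75 and 1.0 mm, against 0 to 9.35 CPM later. Zm00001d018951 had 34.1, 97.01 and 40.8 CPM in short anthers and 0.704 CPM at 2.0 mm, the only later length with a UMI. Zm00001d030069 had 136.6, 24.3 and 40.8 CPM in short anthers, against 0 to 8.12 CPM later. All 3 were near silent after 1.0 mm but rested on 62, 42 and 63 UMIs at 0.5-1.0 mm.

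Zm00001d020544 had 273.1, 43.7 and 24.5 CPM at 0.5, 0.75 and 1.0 mm, against 0 to 18.7 CPM later. Its neighbour by ID, Zm00001d020543, is also a member, with 156.5, 29.1 and 16.3 CPM at the same lengths. Zm00001d000958 had 22.8, 106.7 and 24.5 CPM in short anthers, against 0 to 11.7 CPM later. In each of the 6 genes with the largest ratio except Zm00001d014875, 1 of the 3 short lengths stood well above the other 2.

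In 3 cases a pair of members lay within 3 of each other by ID number, and each pair varied together over the 11 lengths. The correlation of log2(CPM + 5) was 0.959 for Zm00001d020543 and Zm00001d020544, 0.981 for Zm00001d028554 and Zm00001d028557, and 0.914 for Zm00001d044372 and Zm00001d044373. Both genes of a pair were counted in the same libraries and were chosen for the same drop. No source used here says how reads shared by similar copies were assigned, so the levels within a pair may not be separate measurements. Zm00001d028557 had 14.2, 208.6 and 183.8 CPM at 0.5, 0.75 and 1.0 mm, and was thus lowest at 0.5 mm of the 3, like its partner.

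Values near the thresholds were continuous with those outside. Just inside the level of 50 CPM were Zm00001d028796 with 50.4 CPM, Zm00001d021588 with 50.5 CPM and Zm00001d000958 with 51.3 CPM. Just outside it were Zm00001d012830 with 49.5 CPM and Zm00001d032838 and Zm00001d047053 with 46.4 CPM each. The ratio was 2.500, 2.506 and 2.506 in Zm00001d021588, Zm00001d005976 and Zm00001d022614, and 2.492, 2.488 and 2.485 in the excluded Zm00001d031635, Zm00001d033312 and Zm00001d042641. The 88 genes are thus the upper end of a continuum and not a separate class.

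Among the rows that carry a gene symbol in place of an ID, 3 met the same thresholds. HMGIY2, an HMG-I/Y protein that binds AT-rich DNA in chromatin, had 1718, 3390 and 2389 CPM at 0.5, 0.75 and 1.0 mm, and 250.3 to 837 CPM with a median of 351.9 CPM later. SCR, a SCARECROW regulator of the GRAS family known for its part in tissue patterning, had 275.96, 145.5 and 118.4 CPM, and 15.0 to 65.5 CPM later. TD1, the thick tassel dwarf1 receptor kinase that limits meristem size, had 91.0, 223.1 and 224.6 CPM, and 0 to 84.2 CPM later. In all 3 the short lengths were above each of the later ones. HMGIY2 was more abundant than any of the 88 members on this scale, which counts 3' ends and is not corrected for transcript length.

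Over the 11 lengths, the 6 symbol rows most like the summed members by Pearson correlation of log2(CPM + 5) were HMGIY2 at 0.95, RPS4 at 0.92, DMT105, ROA2 and TD1 at 0.89, and SCR at 0.88. These correlations share the same 11 libraries and are descriptions. DMT105, a DNA methyltransferase, had 327.2, 349.2 and 355.3 CPM at 0.5, 0.75 and 1.0 mm and 10.0 to 155.1 CPM later. Its ratio of 2.46 was just short of the threshold. RPS4, named as a ribosomal protein, had 1181, 563 and 555 CPM in short anthers and 154.02 to 472 CPM later.

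Lists of marker genes were summed over the same lengths. Of 18 chromatin and replication symbols 7 had a row, with 7123 to 8357 CPM at 0.5-1.0 mm and 1448 to 3746 CPM later; MNB1B, an HMG box protein, was the highest of the 7 at each short length. Of 12 patterning symbols 5 had a row, with 407.4 to 566 CPM at 0.5-1.0 mm and 41.1 to 196.4 CPM later. The 21PHAS loci, precursors of 21-nucleotide phased small RNAs of premeiotic anthers, were summed together with SGS3. This sum was 2114 to 2983 CPM at 0.5-1.0 mm and 283.2 to 833 CPM later. SGS3 alone had 810.8 to 1278 CPM at 0.5-1.0 mm and made up most of the later sum. Its later median was 395.07 CPM, against 423.74 CPM for the sum. It held 541.97 of the 833 CPM at 1.5 mm and all of the 400.45 CPM at 2.75 mm. None of these sums overlapped between short and later anthers, but the first 2 rested largely on their most abundant rows. MNB1B and HMGIY2 averaged 4282 and 2499 CPM at 0.5-1.0 mm, and SCR and TD1 179.97 and 179.6 CPM. Taken singly, FEN1, MAD2, CDC2, LBD6, RS2 and CR4 overlapped, RS2 with 0 to 28.4 CPM in short anthers and 0 to 17.7 CPM later. The 24PHAS loci, not in the sum with SGS3, had 17.1 to 48.5 CPM at 0.5-1.0 mm and 0 to 7599 CPM later.

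Genes of differentiated wall cells were instead lower in short anthers. All 5 nuclear photosynthesis symbols had a row, with 179.2 to 600.4 CPM at 0.5-1.0 mm and 1090 to 5576 CPM later. C2, the chalcone synthase of flavonoid synthesis and the 1 gene of 5 on its list with a row, had 14.2 to 302.2 CPM at 0.5-1.0 mm and 308.7 to 5339 CPM later. Of 11 meiosis symbols RAD51B alone had a row, with 19.4 to 28.6 CPM at 0.5-1.0 mm and 0 to 28.1 CPM later, and of 12 tapetum and pollen symbols PRO3 alone, at 0 at all lengths. With these few markers, which layers or germinal cells were sampled at each length could not be read from the table, and their part in the members' levels was not tested.

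The members' sum could also be followed in single pools, which were smaller. The cells of these pools had chosen the members, so the values describe how evenly the pools contributed and no more. In the 11 pools of at least 8 cells at 0.5-1.0 mm it was 7112 to 12416 CPM with a median of 10030 CPM, and in the 30 later pools 852 to 6697 CPM with a median of 1914 CPM. The 2 ranges did not overlap. The pool nearest to the short anthers was pool 1 of set 1.4.21 at 1.25 mm, 15 cells with 6697 CPM (95% interval 5557 to 8002). The other 3 pools at 1.25 mm had 2994 to 3837 CPM. That pool also had 0 CPM of 24PHAS transcripts, precursors of 24-nucleotide phased small RNAs of meiotic anthers, whereas the other 3 had 811 to 3402 CPM, and its TD1 and HMGIY2, at 221.4 and 1550 CPM, were above theirs.

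**Figure D3:**
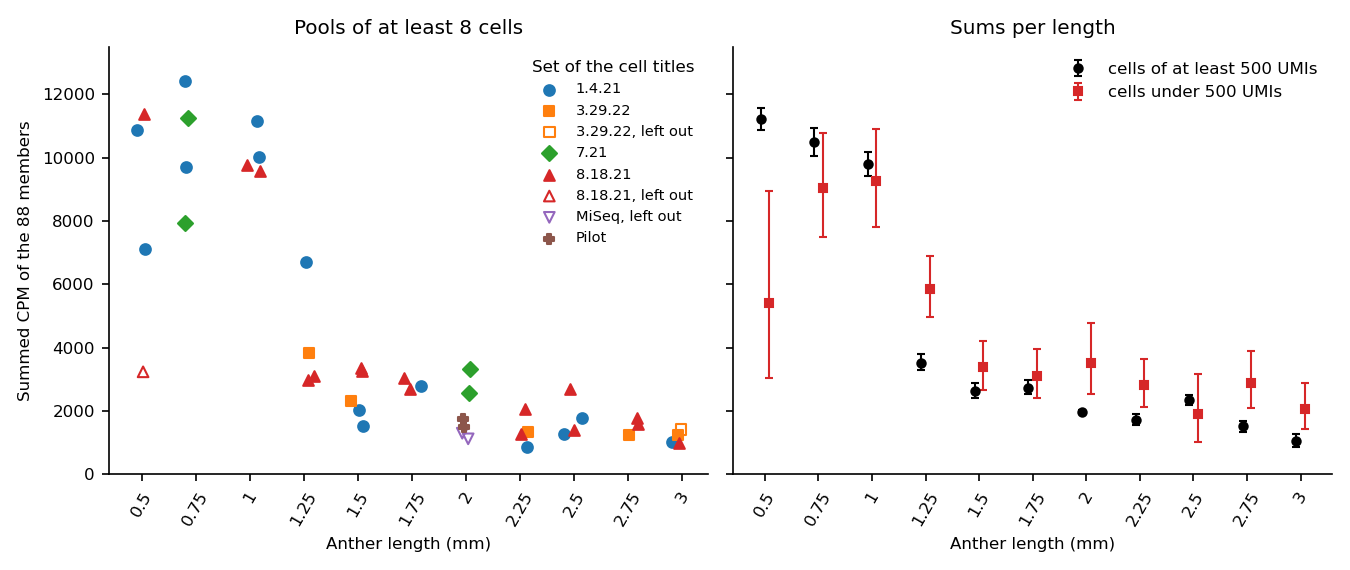
Summed CPM of the 88 members against anther length (mm). Left, each point is a pool of at least 8 cells, with marker and colour by set and open symbols for pools the rule left out; right, sums per length with exact 95% Poisson intervals for the cells used and for the cells under 500 UMIs. The 11 pools used at 0.5-1.0 mm lay at 7112 CPM or more, and the open triangle at 0.5 mm at 3237 CPM.

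The pools left out were not used to choose the members. Pool 7 of set 8.18.21, titled 0.5 mm, had a member sum of 3237 CPM (2812 to 3708) in 14 cells, against 7112, 10864 and 11389 CPM in the other pools at 0.5 mm. In it, 86 of 88 members were below their mean of the 0.5-1.0 mm lengths and 27 were at 0. The members were chosen for high levels in the other short anther pools, which favours such counts. No share of other gene IDs is set beside them, so nothing is read from them. It also had 7081 CPM of 24PHAS transcripts, 1323 CPM of C2 and 996 CPM of CAB1, a chlorophyll-binding protein of the light harvesting complex, against at most 83.3, 538 and 583 CPM in the 11 short anther pools used. Its TD1 and HMGIY2, at 46.7 and 1198 CPM, were below the lowest of those pools, 79.6 and 1283 CPM, while its SCR at 124.5 CPM was within their 29.2 to 466 CPM. The member sum of this library labelled 0.5 mm lay within the range of the pools at 1.25-1.75 mm, 1519 to 6697 CPM. It also lay within that of the pools at 2.0-2.25 mm, 852 to 3333 CPM, so it does not tell these windows apart. With all columns kept, 70 of the 88 genes still met the rule. At the later lengths left out, the sum was 1406 CPM in pool 2 of set 3.29.22 at 3.0 mm, and 1297 and 1120 CPM in the MiSeq pools at 2.0 mm, all within the range of the later pools used.

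The drop was also looked at within sets 1.4.21 and 8.18.21, which hold short and later anthers. Set 7.21, with pools at 0.75 and 2.0 mm, was not looked at in this way. Within set 1.4.21, 80 of 88 members were higher at 0.5-1.0 mm than in the next window, 50 of them by 2.5 times or more, with a median ratio of 2.61. Within set 8.18.21, all 88 were higher, 52 by 2.5 times or more, with a median ratio of 2.89. The log2 ratio of Zm00001d014875 was 2.11 in set 1.4.21 and 3.98 in set 8.18.21, and that of Zm00001d020544 was 0.82 and 3.51. These sets also chose the members, so the values show how evenly they contributed and no more.

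Cells with fewer than 500 UMIs had no part in the choice, although they came from the same pools and libraries. Of these 464 cells, 85 with 31947 UMIs came from 0.5-1.0 mm and the rest, with 139738 UMIs, from later lengths. Their member sum was 5421, 9032 and 9254 CPM at 0.5, 0.75 and 1.0 mm, and 5865, 3377, 3117, 3513, 2807, 1893, 2891 and 2067 CPM at the later lengths in order. The value at 0.5 mm came from 8 cells and 15 member UMIs (95% interval 3034 to 8941 CPM) and lay below the 1.25 mm value, so the 2 groups overlapped through these 2 lengths. Pooled over lengths the sum was 8827 CPM at 0.5-1.0 mm and 3428 CPM later.

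Member by member, 61 of 88 (69.3%) had a higher summed CPM at 0.5-1.0 mm in the shallow cells. Among the 45 with at least 5 UMIs in these cells 35 were higher, against 48.6% of the 7483 gene IDs with as many UMIs. The median log2 ratio was 1.20 in members and -0.04 in those gene IDs.

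A test over single genes had little to work with in these cells. With edgeR's quasi-likelihood test on the 11 sums, 1.20% of the genes with a UMI passed the count filter, among them 0 members. Of the genes tested, 2 (1.01%) had an adjusted p under 0.05, both lower at 0.5-1.0 mm. Without the filter, 16630 genes including 84 members were tested and 0.0962% were called, 0.0902% lower and 0.00601% higher. The 1 gene called higher was the member Zm00001d014875, with 13 UMIs at 0.5-1.0 mm and 2 later (log2 fold change 3.82, SE 0.87, adjusted p = 0.0148). The fitted value was above 0 in 58 of the 84 members, with a median of 0.86. The median was -0.88 in all 16630 genes but -0.04 in the genes that passed the filter. The value for all genes thus depended on those with few UMIs and is no like measure for the members. Of the 84, 13 had an unadjusted p under 0.05, as did 4.24% of all genes tested and 21.6% of the genes in the filtered test. Zm00001d021707 had 17 UMIs at 0.5-1.0 mm and 36 later and did not pass (log2 fold change 0.59, SE 0.65, adjusted p = 0.671). At this depth differences in most single members were not detectable.

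The course after 1.0 mm was tested as a slope on length over the 8 later sums of the cells used. The rule bounded each later window from above with these same sums but did not use the order of the later lengths, so the members' slopes are not independent of their choice. With edgeR's quasi-likelihood test 5131 genes were tested, of which 7.31% were called, 5.01% rising and 2.3% falling with length. Without scaling factors 3.24% rose and 6.72% fell, and the median slope of all genes moved to -0.26. Of the 16 members that passed the count filter 2 fell and 0 rose. Zm00001d021447 fell by 2.82 on the log2 scale per mm (SE 0.70, adjusted p = 0.0329), with its 2 highest later values, 79.5 and 110.7 CPM, at 1.25 and 1.5 mm and 5.01 CPM or less from 2.5 mm on. Zm00001d026488 fell by 1.46 on the log2 scale per mm (SE 0.37, adjusted p = 0.0363); its later values began at 182.4 CPM and ended at 10.3 CPM.

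As a description, the slope was negative in 12 of the 16, with a median of -0.33 against 0.01 in all genes tested. In 8 of the 16, none of them called, the sign turned in at least 1 alternative. Zm00001d047087 had the most positive slope, 0.62 (SE 0.40, adjusted p = 0.387). Without the filter, 66 of 88 members had a negative slope, with a median of -0.47 against -0.09 in 21903 genes, of which 0.886% fell. There 3 members fell, the third being Zm00001d014875 (-4.40, SE 0.76, adjusted p = 0.00131), whose later level was highest at 1.25 mm. Leaving out 1 length ended the call of Zm00001d021447 for 1.5, 1.75, 2.25, 2.75 or 3.0 mm (adjusted p 0.0525 to 0.116) and that of Zm00001d026488 for 1.25, 1.5, 1.75, 2.75 or 3.0 mm (0.0544 to 0.296), with slopes still below 0.

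**Figure D4:**
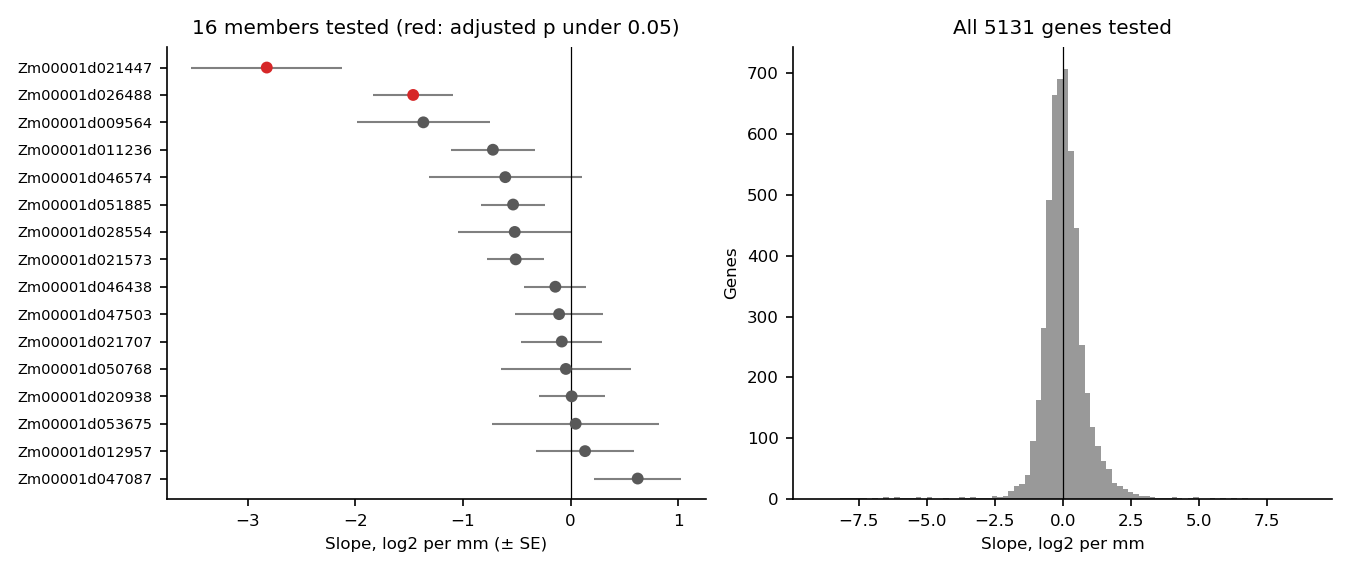
Slope of the level on anther length over 1.25-3.0 mm (log2 per mm, edgeR). Left, the 16 members tested with their standard error, in red where the adjusted p was under 0.05; right, the number of genes by slope for all 5131 tested. Of the 16 members 12 lay below 0, and Zm00001d021447 and Zm00001d026488 passed the test.

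The members were spread over many cells. At 0.5-1.0 mm, 99.5% of the cells had a member UMI, with a median of 12 member UMIs from 10 members per cell. To compare cells at 1 depth, each cell was thinned to 500 UMIs. Then 96.6% of the cells at 0.5-1.0 mm and 65.9% of the 1206 later cells had a member UMI, with a median of 4 and 1 UMIs. The median depth before thinning was 1348 UMIs at 0.5-1.0 mm and 1360 UMIs later.

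Single members ranged from broad to restricted. Zm00001d014875 was detected in 19.6% of the thinned cells at 0.5-1.0 mm (95% exact binomial interval 15.7 to 23.9%) and in 1.2% of the later ones, and in 43.3% and 2.6% of the unthinned cells. Zm00001d051885 was in 21.9% of the thinned cells at 0.5-1.0 mm and 7.4% of the later ones, and in 46.2% and 23.1% of the unthinned cells. At the other end, Zm00001d028796, Zm00001d000958 and Zm00001d018951 were found in 12, 13 and 15 of the short anther cells (3.1%, 3.4% and 3.9%). As free RNA can give a UMI in a cell that does not express a gene, the low later shares may hold such background.

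The 20 cells (the top 5%) with most UMIs of a member held a median of 59.6% of its UMIs at 0.5-1.0 mm, from 33.5% for Zm00001d000126 to 100% for Zm00001d028796, Zm00001d000958 and Zm00001d018951. In gene IDs of the same level the median was 48.9%, and 70 of the 88 members were above it. In 5 members 1 cell held over 20% of the UMIs. Without the cell of highest count for each gene, all 88 remained higher at 0.5-1.0 mm, with ratios of at least 2.10 and a median of 2.66, but 54 kept the threshold of 2.5 and 50 CPM.

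To see which short anther cells held the members, these cells were clustered on all other rows, with the 88 members left out. The 9 clusters held 25 to 99 cells each, and are given by number since no cell type could be named from the markers with a row. The members' sum was lowest in cluster 5 with 6659 CPM (5980 to 7393) and in cluster 6 with 7447 CPM (6691 to 8266). Cluster 1, the largest, had the highest sum, 11985 CPM (11567 to 12414), and clusters 2 and 3 had 11642 and 11618 CPM. All 9 were above the highest later length, 3531 CPM, which the rule favoured, since these cells and lengths had chosen the members. The intervals of clusters 1 and 5 were far apart.

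Clusters 5 and 6 also differed in differentiation genes. Cluster 5 had 1537 CPM of C2, and cluster 6 had 2194 CPM of CAB1, against 0 CPM of C2 and 34.7 CPM of CAB1 in cluster 1. Cells of cluster 5 shared well positions across pools 2.18 times as often as its pool shares give (12 pairs against 5.51), and the part of this in its low sum was not tested.

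Single members had their largest ratio in different clusters. Of the 88, 50 had a UMI in all 9 clusters, 35 were in no cluster at 2 times the level of the others, and 25 reached 3 times the others in 1 or more. The same counts were not made for other genes of like level, so nothing particular to the members is read from them. The largest ratio to the other clusters, which need not be the highest level, was in cluster 1 for 29 members and in cluster 9 for 12. It was in clusters 2 and 3 for 10 each, and in cluster 5 for 1. The broad genes were mostly those of high level: Zm00001d014875 had 143.7 to 922 CPM over the 9 clusters and Zm00001d026488 had 147.7 to 432 CPM.

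Cluster 1 had 135.1 CPM of Zm00001d028796 against 7.36 CPM in the other clusters, 120 CPM of Zm00001d034143 against 20.2 CPM, and 146.6 CPM of Zm00001d026426 against 25.8 CPM. The last 2 genes were higher there in 6 of 6 pools that could be compared, and Zm00001d028796 in 3 of 6. Cluster 6 had 760 CPM of Zm00001d053675 (95% interval 532 to 1051) against 96.7 CPM, higher in 4 of 4 pools. That gene was at 0 UMIs in cluster 3, where 3 UMIs would be 46.7 CPM, and at 11.6 CPM in cluster 1.

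Cluster 7, 30 cells in which 21PHAS transcripts reached 11938 CPM, held the members with the largest ratio to the other clusters. It had 343.1 CPM of Zm00001d000958 against 9.75 CPM in the other clusters, from 29 UMIs in 7 cells, and 390 CPM of Zm00001d018951 against 12.5 CPM, from 33 UMIs in 7 cells. Zm00001d019234 had 307.6 CPM in cluster 7 against 40.4 CPM. Each was higher there in 1 of the 2 pools that could be compared. Zm00001d000958 and Zm00001d018951, near silent after 1.0 mm, had 80.6% and 78.6% of their short anther UMIs in this cluster, and Zm00001d019234, which had 10.0 to 27.0 CPM at the later lengths, had 47.3%. Zm00001d028796 was as narrow, with 89.7% of its UMIs in cluster 1.

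Clusters 3, 8 and 9 each had members well above the rest, while in cluster 5 no member exceeded 2.06 times its level in the others. In cluster 3, with 467 CPM of TD1, Zm00001d044806 had 404.4 CPM against 48.8 CPM in the others. In cluster 8, with 655 CPM of LBD6, a LOB domain regulator of leaf and gametophyte development in maize, Zm00001d033905 had 399.2 CPM against 73.0 CPM and Zm00001d030069 had 303.4 CPM against 59.5 CPM. In cluster 9, Zm00001d049684 and Zm00001d044455 had 313.5 CPM each, against 55.3 and 70.1 CPM. Of the 25 cells of cluster 9, 15 were from pool 8 of set 8.18.21 at 0.5 mm, and 1 pool could be compared there.

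Clusters 2 and 4, like cluster 9, came mostly from 1 pool each, so cluster and pool cannot be told apart in these 3. Of the 52 cells of cluster 2, 35 were from pool 8 of set 8.18.21 at 0.5 mm, and it had 584 CPM of Zm00001d020544 against 69.1 CPM and 333.7 CPM of Zm00001d020543 against 41.7 CPM. Of the 35 cells of cluster 4, 25 were from pool 5 of set 7.21 at 0.75 mm, and it had 932 CPM of Zm00001d028554 against 206.98 CPM and 347.4 CPM of Zm00001d028557 against 96.1 CPM. Both neighbour pairs thus had their highest level in the same cluster. Clusters 2 and 4 could each be compared with the other clusters within 2 pools. Zm00001d020544, Zm00001d020543 and Zm00001d028554 were higher in their cluster in 1 of the 2 pools, and Zm00001d028557 in 0. The differences thus did not recur in each pool.

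**Figure D5:**
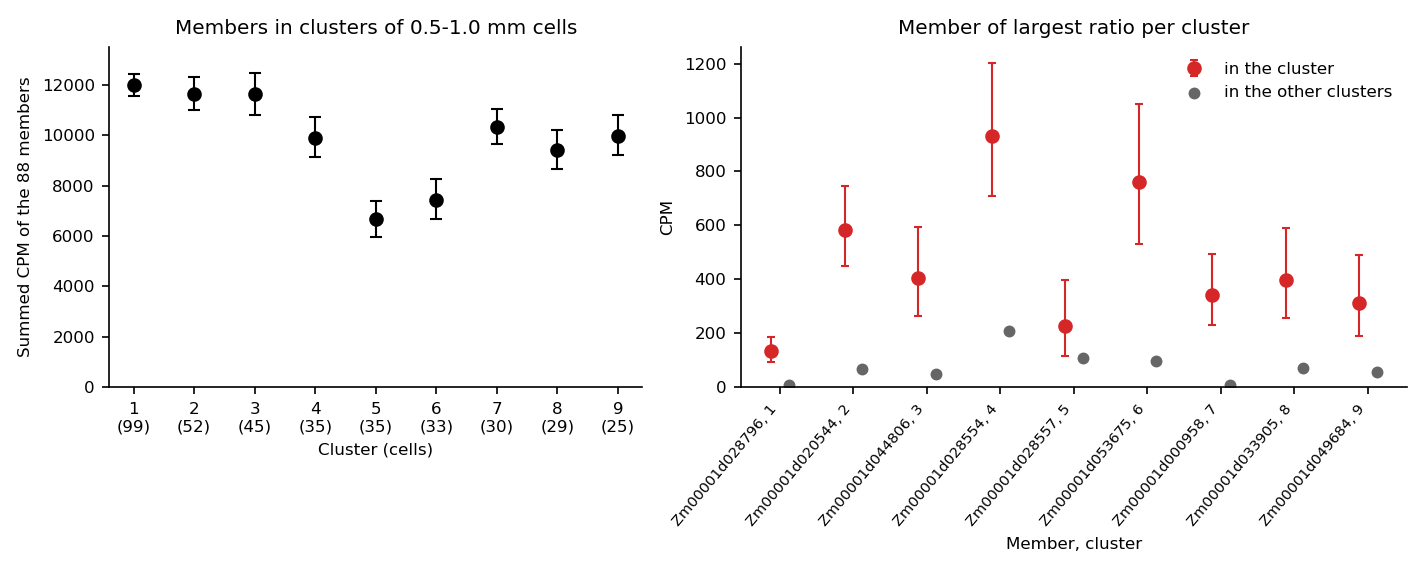
Members in the 9 clusters of the 0.5-1.0 mm cells, clustered without the member rows. Left, summed CPM of the 88 members with exact 95% Poisson intervals; right, for each cluster the member with the largest ratio, its CPM in the cluster (red, with interval) and in the other clusters (grey). Clusters 5 and 6 had the lowest sums, 6659 and 7447 CPM.

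The cells of all lengths were also clustered without the members, to see whether the level differed between lengths within similar cells. Of 18 clusters, 6 held at least 5 cells each at 0.5-1.0 mm and at 1.25-1.75 mm, and in all 6 the member sum was higher at 0.5-1.0 mm, by 1.78 to 3.15 times. In the cluster with most C2 among these 6 it was 7023 CPM in the short anthers, against 2711 CPM in those of 1.25-1.75 mm. With each of the 6 clusters given equal weight, 87 of 88 members were higher at 0.5-1.0 mm than at 1.25-1.75 mm, with a median ratio of 2.34, against 1.15 in 4448 gene IDs of at least 50 CPM; from the summed cells the members' median was 2.94. These 6 clusters held 87.5% of the short anther cells but 41.2% of those at 1.25-1.75 mm, and the same cells had chosen the members, so the values are a description.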

How the data were processed

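Per the labels' protocols, single cells of W23 anthers were fixed, sorted and sequenced with CEL-Seq2. The authors deposited 1 table of UMI counts, not normalised, with 22173 rows and 2182 cells. The submitters' processing notes name HISAT2 and the build B73 RefGen_v4. Its version, the counting step and any filters are not stated there. UMIs remove amplification, but shared reads of similar genes may be split or lost. Column names gave length, set and number. The members and gene lists were chosen with earlier results of these data known.

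Cells of at least 500 UMIs (1589; 464 were shallower and 129 in left-out columns) were summed per length to CPM over all rows; 50 CPM was read as the mean before 5 was added. Doublets were not removed. edgeR 4.0.16 in R 4.3.3 (TMM, filterByExpr, quasi-likelihood F-test, Benjamini-Hochberg rate of 0.05 over all genes tested) compared lengths, and standard errors came from the estimate and its F statistic. DESeq2 1.42.0 was an alternative, and the fits were checked on simulated counts. Replicate sums are lengths, so p-values also hold differences between stages. Clusters came from scanpy 1.11.5 with 2000 variable genes, 20 components, 15 neighbours and a Leiden resolution of 1. Genes were named by fixed criteria: the 12 members of highest level, the 6 of largest ratio, the 3 on each side of a threshold, members called by a test, 3 per cluster, and symbol rows. Other members were chosen after their values were seen.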

Additional observations from a re-analysis of the deposited data

Results flagged for a closer look

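In 5 of the 18 series of values looked at over the 8 later lengths, 1 length stood far from the others by Dixon's 95% criterion, which chance meets in about 1 of 20 for continuous values, a rate that does not hold for counts near 0. Zm00001d014875 had 107.6 CPM at 1.25 mm (nearest value 29.1 CPM; 46.0 CPM at 1.25 mm without pool 1 of set 1.4.21), Zm00001d026488 had 182.4 CPM at 1.25 mm (81.6 CPM), and Zm00001d044806 had 9.35 CPM at 1.25 mm (2.70 CPM). Zm00001d000958 had 11.7 CPM at 1.5 mm (2.11 CPM). Zm00001d018951 had 0.704 CPM at 2.0 mm, a single UMI in the deepest length, against 0 at each other later length. The last 3 genes had 3, 5 and 1 later UMIs in all, in the order given.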

How the results depend on the processing

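The share of gene IDs that were members (0.404%) depended on the thresholds and on the libraries. A fold of 2 gave 1.21% and a fold of 4 gave 0.0873%; a level of 25 CPM gave 0.689% and of 100 CPM gave 0.133%. TMM scaling gave 0.202%, 44 of the 88, since it moved short against later windows by 0.08, 0.29 and 0.36 (log2), yet all 88 remained higher at 0.5-1.0 mm, by at least 2.07 times. Equal weight per cell gave 0.243%, with 40 of the 88. Without set 8.18.21 the share was 1.36% (37 of the 88 kept) and without set 7.21 it was 0.652% (67 kept). Without each gene's highest short anther cell, chosen after seeing the data, it was 0.248%, 54 genes. Leaving out 1 length gave 0.367% to 0.671%, with 53 to 87 of the 88.

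For the shallow cells the 1.01% of genes called became 0.0962% without the filter (16 genes of more tested), 8.04% with DESeq2, 1.12% with equal weight per cell and 0% to 12.2% without 1 length, the most without 1.25 mm; 21.6% had an unadjusted p under 0.05. Over 1.25-3.0 mm the 7.31% called became 2.53% to 7.52% without 1 length, the fewest without 1.25 mm, and 8.44% with DESeq2, which also called the 2 members. With set as a replicate block the shallow cells gave 7% and the slope 24.7% of the fewer genes tested, with 0 calls among the 3 members tested, which did not include the 2 called ones; same-set sums had a median correlation of 0.053, so sets were not taken to pair them. At other clustering resolutions the lowest member sum was 7847 CPM (4 clusters) and the highest 12659 CPM (13 clusters). Without scaling factors more genes fell (6.72%) than rose (3.24%) over 1.25-3.0 mm, against 2.3% and 5.01%. The 2 called slopes kept their sign where tested, but 8 of 14 others turned in at least 1 alternative, and within set 1.4.21 8 members were not higher at 0.5-1.0 mm. Causes were not tested. Depth limits single genes: at 3.0 mm 3 UMIs are 30.8 CPM.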
